A study of Silurus asotus with 15 samples.

Results

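The spleen was represented by 1 library among the 15 tissue libraries of adult Amur catfish (Silurus asotus), and it was taken by its label and set against the 14 others across 25089 genes. The others were labelled head kidney, kidney, heart, liver, pancreas, brain, pituitary, gill, muscle, ovary, testis, skin and the barbels of the upper (maxillary) and lower (mandibular) jaw. All came from adult fish of a benthic habitat, and the labels name no treatment. Strain, sex and the number of fish behind each library are not stated in the labels. Poly(A) RNA was sequenced, and the authors gave FPKM, a level scaled by gene length and by library size. With 1 library per tissue there was no replicate check and no test, and "higher" or "lower" describes these libraries by a rule of size.

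The spleen filters blood. In vertebrates its macrophages take up worn red cells, break down haem through haem oxygenase and biliverdin reductase, and store iron in ferritin or release it through ferroportin, while lymphocytes gather around its vessels. In teleosts the head kidney and kidney are the main blood-forming organs, and the spleen is a secondary lymphoid organ with many resting red cells, thrombocytes and vessel sheaths rich in macrophages. In mammals the organ forms from mesenchyme that needs the transcription factors TLX1, NKX2-3, TCF21 and WT1.

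The summed FPKM of the spleen library was 428585, and the other libraries ran from 239905 to 738341 with a median of 401013. In spleen 14001 genes reached 1 FPKM and 7974 reached 5 FPKM. The 10 genes of highest FPKM held 8.58% of the sum, within the 4.8% to 56.2% in the others. Across all genes the Spearman correlation of the spleen with another library was highest for head kidney (0.917) and kidney (0.893), followed by heart (0.870), and lowest for the library labelled gill (0.661). Those correlations describe 25089 genes that share 2 libraries each. Markers went against the label in 2 of the other libraries. All 8 genes of the neuron and glia list were highest in the library labelled gill, with a median of 154 FPKM there and 0.0658 FPKM in the library labelled brain. The keratinocyte list had a median of 117 FPKM in the library labelled brain and 0.531 FPKM in the library labelled gill. Both are therefore named by their labels only. Without them 61 genes were spleen-enriched by the rule below, in place of 42.

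The factors that specify the organ were read in the spleen library. They were chosen with earlier results of these data known, so their values are no independent check of the label. TLX1 (C0J50_24898), the homeobox factor without which mice form no spleen, stood at 43.1 FPKM in spleen. In the 14 others it ran from a listed 0 to 0.393 FPKM with a median of 0.0225 FPKM, and the highest was the library labelled gill. Spleen was the highest library, as it was at 5 FPKM or more for 5.05% of all genes. Its lead over the next library was 31.7-fold on the FPKM + 1 scale. The gene lies on scaffold178316 from 347941 to 350873, plus strand, with 3 exons and 921 coding bases, on a build the sources do not name. The other 5 genes named as T-cell leukemia homeobox proteins 2 or 3 were listed at 0 in spleen.

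NKX2-3 (C0J50_10419), a homeobox factor of spleen and gut mesenchyme, was at 24.6 FPKM in spleen against a median of 0.107 FPKM, and mandibular barbel came next at 4.57 FPKM. Its lead was 4.60-fold, just under the 5-fold used below. TCF21 (C0J50_00800), a basic helix-loop-helix factor of visceral mesenchyme, was at 22.9 FPKM against a median of 0.148 FPKM and 2.90 FPKM in heart. WT1 (C0J50_24961), a zinc finger factor of mesothelium and gonad, was at 33.9 FPKM in spleen and 40.4 FPKM in testis, with a median of 1.14 FPKM. Spleen was therefore the highest library for 3 of these 4 factors and the next to testis for WT1.

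Of all 18 identity factors in the list, 8 reached 1 FPKM in spleen and 10 did not. Against the median of the 14 other libraries, 5 were at least 4-fold higher, TLX1, NKX2-3, TCF21, WT1 and the endothelin B receptor EDNRB (22.6 FPKM), beside 5.9% of all genes. None of the 18 was 4-fold lower, beside 0.116% of all genes. Spleen was the highest library at 5 FPKM or more for 3 of the 18, beside 5.05% of all genes. The median of the list was a log2 difference of 0.19, against 0.10 over all genes. NKX2-5, which also marks the early splenic mesenchyme of mammals, was listed at 0 in spleen and was at 99.1 FPKM in heart. Outside the list and chosen after their values were seen, rows named NK2 transcription factor related 7 had the other order. C0J50_19028 was at 49.3 FPKM in spleen and 14.5 FPKM in heart, and C0J50_11085 at 49.2 FPKM in spleen with heart next. Both were listed at 0 in head kidney and kidney, and they may share reads, which was not tested. PBX3, NKX3-2 and BARX1 stayed between 0.145 and 1.45 FPKM.

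A gene was called spleen-enriched when spleen held the highest value, at 5 FPKM or more, and log2(FPKM + 1) was at least 5-fold above every other library. Of 25089 genes 42 met this (0.167%), and 40 of them carried a protein name. Among the genes at 5 FPKM or more in spleen the share was 0.527%. The 14 other libraries had between 0 and 606 enriched genes by the same rule, with a median of 96.5. In 11 of the 42 genes head kidney came next, in 8 the library labelled brain, in 7 testis and in 6 heart. In 5 the next library was under 1 FPKM, and in 8 the lead was at least 10-fold. The members nearest the threshold were C1q-like 4 (5.04-fold), EVA-1 homolog B (5.18-fold) and collagen XIX alpha 1 (5.21-fold). Just outside were a CC chemokine named ligand 35 (4.94-fold), PDZ and LIM domain protein 3 (4.91-fold) and an immunoglobulin lambda light chain (4.85-fold).

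**Figure D1:**
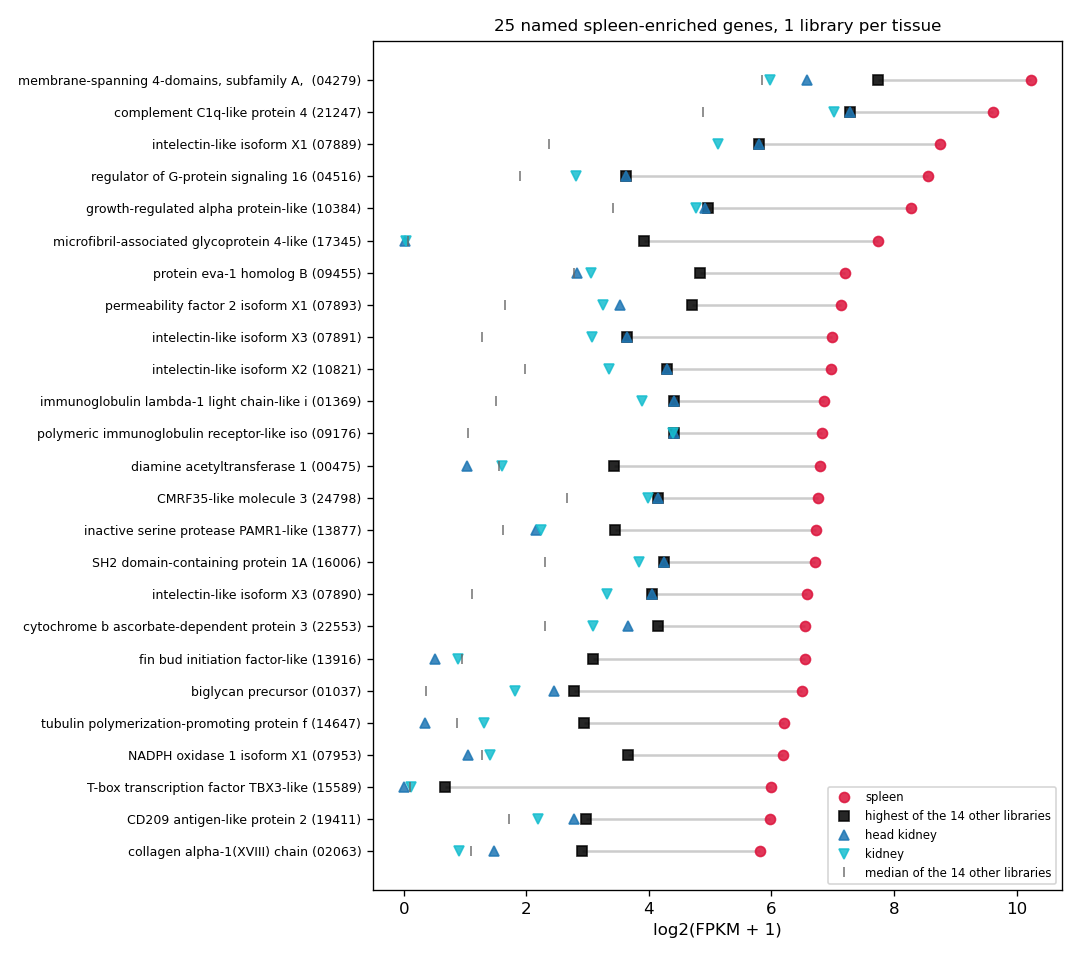
The 25 named spleen-enriched genes of highest FPKM, with log2(FPKM + 1) on the horizontal axis and the last 5 digits of the locus tag in parentheses. Red points are spleen, black squares the highest of the 14 other libraries, triangles head kidney and kidney, and ticks the median of the others; the 25 run from 1201 FPKM for the MS4A gene to 55.2 FPKM for collagen XVIII.

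Secreted lectins and their neighbours formed the densest locus. The 3 intelectin-like genes C0J50_07889, C0J50_07890 and C0J50_07891 lie side by side on scaffold1045, and the CXC chemokine named permeability factor 2 (C0J50_07893) follows within 11533 bases. Intelectins are soluble lectins that bind microbial glycans. C0J50_07889 was at 430 FPKM in spleen, with a range of a listed 0 to 54.4 FPKM and a median of 4.19 FPKM in the others. C0J50_07891 was at 126 FPKM and C0J50_07890 at 94.8 FPKM in spleen, and head kidney was next for both, at 11.5 and 15.6 FPKM. A further intelectin-like gene on scaffold12352, C0J50_10821, was at 124 FPKM. The family has 7 named genes in all. Intelectin 3 (C0J50_17785) had the opposite pattern, with 15.5 FPKM in spleen and 4580.4 FPKM in liver. These paralogs may share reads, and how shared reads were counted is not stated.

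Among the chemokines and signalling genes, the growth-regulated alpha-like chemokine (C0J50_10384), a ligand of neutrophil receptors in mammals, was at 308 FPKM in spleen and at most 30.1 FPKM, in heart, elsewhere. Permeability factor 2 was at 140 FPKM, and the library labelled brain came next at 25 FPKM. C-X-C motif chemokine 11-6 (C0J50_11856) was at 42.7 FPKM, and it was chosen after its values were seen, as were its neighbours C0J50_11858 (24 FPKM) and C0J50_11859 (4.23 FPKM). Spleen was the highest library for all 3. RGS16 (C0J50_04516), which shortens signalling by G-protein coupled receptors, was at 374 FPKM, with 11.4 FPKM in head kidney and a median of 2.74 FPKM, a lead of 30.3-fold. SH2D1A (C0J50_16006), the adaptor SAP of T and natural killer cells, was at 104 FPKM against 17.9 FPKM in head kidney.

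Surface and complement-type proteins made up another set. The MS4A member 17C.1 (C0J50_04279), a tetraspanning membrane protein, had the highest FPKM of all spleen-enriched genes at 1201, with 212 FPKM in heart and a median of 56.8 FPKM. After median-ratio scaling its lead was a log2 difference of 1.79, below the 5-fold rule. C1q-like 4 (C0J50_21247) was at 784 FPKM against 155 FPKM in head kidney. A CMRF35-like molecule (C0J50_24798) was at 107 FPKM, a polymeric immunoglobulin receptor-like gene (C0J50_09176) at 113 FPKM, and the lectin CD209-like 2 (C0J50_19411) at 61.9 FPKM. Their next libraries reached 16.7, 20.1 and 6.83 FPKM. NADPH oxidase 1 (C0J50_07953) and the ascorbate-dependent cytochrome b protein 3 (C0J50_22553) stood at 71.8 and 92.9 FPKM. After median-ratio scaling C1q-like 4 and NADPH oxidase 1 also fell below the 5-fold rule, with log2 leads of 2.31 and 1.99.

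A group of enriched genes encodes matrix and mesenchymal proteins. Biglycan (C0J50_01037), a small proteoglycan, was at 89.9 FPKM, and the 14 others ran from a listed 0 to 5.82 FPKM with a median of 0.287 FPKM. The MFAP4-like gene C0J50_17345 was at 214 FPKM in spleen and at 0.0143 FPKM in head kidney, while the neighbouring family member C0J50_17350 was at 234 FPKM in spleen and 276 FPKM in testis. Collagen XVIII alpha 1 (C0J50_02063), a basement membrane collagen, was at 55.2 FPKM, the PAMR1-like protease (C0J50_13877) at 105 FPKM and a gene like fin bud initiation factor (C0J50_13916) at 92.7 FPKM. The highest other libraries had 6.52, 9.94 and 7.46 FPKM.

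A TBX3-like T-box factor (C0J50_15589) had the largest lead of the 42, 40.1-fold, with 62.8 FPKM in spleen and 0.590 FPKM in testis. The 2 other genes named TBX3 were at 7.5 and 4.38 FPKM in spleen and were highest in pituitary, at 16 and 13.3 FPKM. Diamine acetyltransferase 1 (C0J50_00475), which breaks down polyamines, was at 110 FPKM against 9.73 FPKM in pancreas, TPPP3 (C0J50_14647) at 73.2 FPKM and EVA-1 homolog B (C0J50_09455) at 146 FPKM. Outside the naming rule and chosen after their values were seen, interleukin 6 was at 14.8 FPKM, CCBE1, a factor of lymphatic vessel growth, at 17.9 FPKM, and Hox-B8b (C0J50_17567) at 9.72 FPKM. Hox-B8b was at 0.270 FPKM or less in every other library.

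Macrophage genes were higher in the spleen library than in most others. Of 40 matched genes of the list, 27 were at least 4-fold above the median of the other libraries and none was 4-fold lower, beside 5.9% and 0.116% of all genes. Among genes at 5 FPKM or more in spleen the first share was 18.6%. The median log2 difference of the list was 2.64, the highest of the 15 libraries, against 0.10 over all genes. It was 0.81 over every row matched to a symbol of the list, and 2.06 after median-ratio scaling, with 20 of the 40 higher. In bulk tissue, more cells of a type and more RNA per cell cannot be told apart. Spleen held the highest value, at 5 FPKM or more, in 15 of the 40. That share was 5.05% over all genes and 15.9% over genes at 5 FPKM or more in spleen.

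Recognition and uptake receptors were among the members higher in spleen. MARCO (C0J50_19574), the scavenger receptor of marginal zone macrophages in mammals, was at 351 FPKM in spleen, 189 FPKM in head kidney and 105 FPKM in kidney, and ran from 2.72 FPKM upward in the others with a median of 10.3 FPKM. The macrophage mannose receptor MRC1 (C0J50_03297) was at 115 FPKM against 80.1 FPKM in head kidney. CSF1R (C0J50_13757), the receptor for the macrophage growth factor, was at 73.6 FPKM, next to the library labelled brain at 27.8 FPKM, over a median of 6.60 FPKM. MERTK and AXL, receptor kinases for apoptotic cells, were at 30.4 and 17.7 FPKM and highest in spleen. CD163, a haemoglobin scavenger receptor in mammals, was matched by 27 rows. Its row of highest mean had 1.29 FPKM in spleen and 222 FPKM in liver.

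The C1q subunits, which macrophages make, were among the highest members. Subunit C (C0J50_12628) was at 1087 FPKM and subunit A (C0J50_18639) at 798 FPKM in spleen. Their next library was the one labelled brain, at 276 and 179 FPKM, and head kidney had 159 and 113 FPKM. Lysosomal proteases were high as well, with cathepsin B at 412 FPKM, cathepsin S at 226 FPKM and legumain at 145 FPKM, each highest in spleen. CD68 was listed at 0, and APOE was at 18 FPKM with 4654 FPKM in liver.

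Genes of the phagocyte oxidase had another order. CYBB was at 97.4 FPKM in spleen and 454 FPKM in head kidney, and CYBA at 131 and 372 FPKM. The cytosolic subunits NCF1 and NCF4 were at 144 and 48.9 FPKM in spleen and at 338 and 273 FPKM in head kidney. SPI1, the myeloid factor PU.1, was at 97.2 FPKM in spleen and 155 FPKM in head kidney. SPIC, which drives red pulp macrophages in mice, was at 3.11 FPKM in spleen and 13.2 FPKM in head kidney. Set against head kidney, the macrophage list had 4 members 4-fold higher and 3 lower, beside 2.54% and 1.3% of all genes. Its median difference was -0.04. That median was 0.22 after median-ratio scaling and 0.01 after scaling to a common sum.

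**Figure D2:**
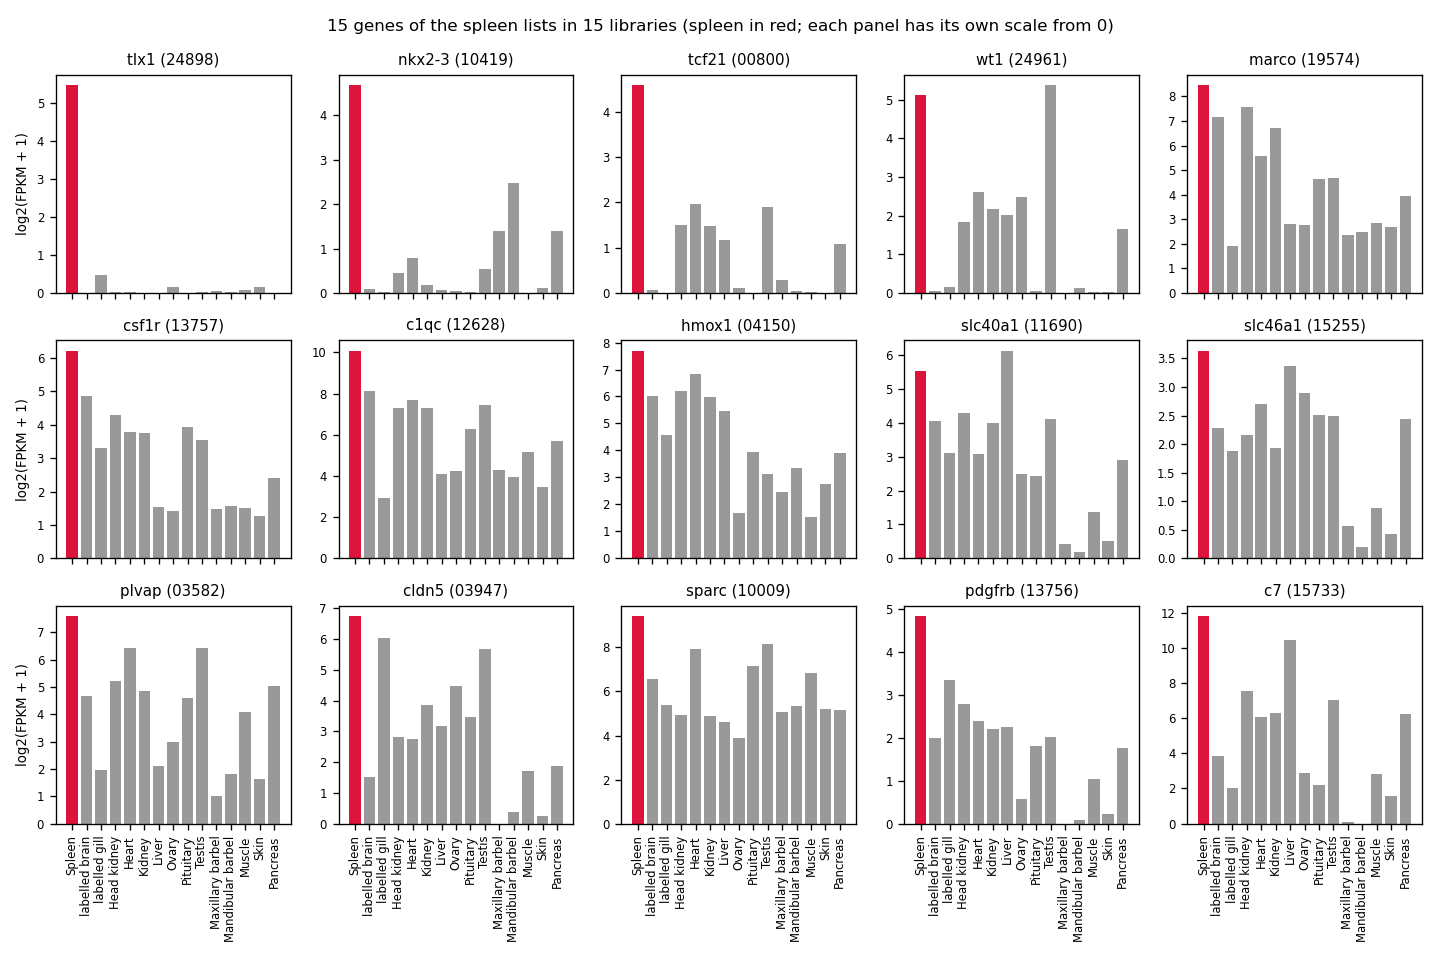
Bars give log2(FPKM + 1) of 15 list members in the 15 libraries, each panel on its own scale from 0, with spleen in red and the last 5 digits of the locus tag in parentheses. Spleen is the highest bar in all panels but WT1, where testis reaches 40.4 FPKM, and SLC40A1, where liver reaches 69.2 FPKM. The 15 genes were picked for display and do not represent their lists. At 5 FPKM or more, spleen was highest for 3 of 18 identity, 15 of 40 macrophage and 4 of 32 iron genes. It was highest for 4 of 35 stromal, 7 of 36 vessel, and 3 of 19 complement, lectin and pattern receptor genes.

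For iron recycling the picture was mixed by step. Haem oxygenase 1, which opens the haem ring, has 4 named genes, of which 3 lie side by side on scaffold311. C0J50_04150 was at 207 FPKM in spleen, with 114 FPKM in heart, 72.1 FPKM in head kidney and a median of 14.2 FPKM. C0J50_04149 was at 149 FPKM, with 77.9 FPKM in heart. The third, C0J50_04151, was higher in liver (115 FPKM) than in spleen (29.7 FPKM). Biliverdin reductase A (C0J50_04522), the next enzyme, was at 86.1 FPKM in spleen and 44.6 FPKM in kidney. The haem-sensing repressor BACH1 was at 21.1 FPKM, and the haem and folate transporter SLC46A1 at 11.5 FPKM against 9.33 FPKM in liver. Spleen was the highest library for C0J50_04150, C0J50_04149, biliverdin reductase A, BACH1 and SLC46A1.

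For iron export and storage, ferroportin and the leading ferritin gene stood above the median of the others in spleen, but each was higher in another library. Ferroportin (SLC40A1, C0J50_11690), the cellular iron exporter, was at 44.7 FPKM in spleen, below the 69.2 FPKM of liver and above the 18.4 FPKM of head kidney. Its median over the 14 others was 6.99 FPKM. Ferritin heavy chain (C0J50_13558) was the named gene of highest FPKM in spleen, at 5636, and stood at 8398 FPKM in the library labelled brain, with a range from 432 FPKM and a median of 1578 FPKM. A further ferritin heavy chain gene, C0J50_08739, was highest in spleen at 3449 FPKM, with a lead of 1.33-fold over kidney. After median-ratio scaling no ferritin heavy chain gene was highest in spleen. The 7 ferritin heavy chain genes together summed to 11239 FPKM in spleen, 5420 in head kidney and 16383 in the library labelled brain.

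Iron uptake genes of red cell precursors were low. The transferrin receptor TFRC was at 6.17 FPKM in spleen and 80.0 FPKM in head kidney, and mitoferrin 1 (SLC25A37) at 1.02 and 22.7 FPKM. Of the 32 matched genes of the list, 25 reached 1 FPKM in spleen and 6 were 4-fold higher than the median of the others. The 6 are 18.8% of the list, beside 5.9% of all genes and 18.6% of those at 5 FPKM or more in spleen. Those 6 were haem oxygenase 1, ferroportin, haemopexin, transferrin, haptoglobin and hepcidin. Haemopexin, transferrin and haptoglobin, plasma proteins made by liver, were at 0.268%, 0.239% and 0.278% of their liver FPKM, within the band described below. Hepcidin (C0J50_00649), the hormone that closes ferroportin, was at 9.89 FPKM, 19.3% of its liver value of 51.3 FPKM, and its median over the others was 0.188 FPKM. The list's median difference was 0.66.

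Stromal genes were split. Of 35 matched genes 8 were at least 4-fold higher in spleen than the median of the others and none was 4-fold lower. The shares over all genes were 5.9% and 0.116%, and 18.6% were higher among genes at 5 FPKM or more in spleen. The list had a median difference of 1.07. After median-ratio scaling 5 were 4-fold higher. SPARC (C0J50_10009), a collagen-binding matrix protein, was at 689 FPKM in spleen, 286 FPKM in testis and 29.8 FPKM in head kidney, with a median of 37.7 FPKM. CXCL12 (C0J50_10387), the chemokine that retains blood cell precursors, was at 241 FPKM in spleen and 195 FPKM in head kidney against a median of 13.1 FPKM. PDGFRB (C0J50_13756), a receptor of pericytes and reticular cells, was at 27.8 FPKM and the library labelled gill came next at 9.16 FPKM. It lies beside CSF1R on scaffold178113.

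The contractile genes TAGLN and MYH11 were at 286 and 13.1 FPKM in spleen, with testis highest for both, and ACTA2 at 38.4 FPKM against 591 FPKM in testis. Fibrillar collagen I was at 36.2 FPKM for COL1A1 and 40.2 FPKM for COL1A2, with 41.3 and 55.9 FPKM in testis. Desmin was at 1.55 FPKM, decorin at 1.15 FPKM and lumican at 0.107 FPKM. The chemokines CCL19 and CCL21, which guide lymphocytes to the white pulp of mammals, were at 0.0284 FPKM and a listed 0, and both were highest in skin. The match to those names rests on protein names and paralogs are uncertain.

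Several vessel and sinus genes were higher in spleen than in most other libraries. Of 36 matched genes 14 were at least 4-fold higher than the median of the others and none was 4-fold lower, beside 5.9% and 0.116% of all genes and 18.6% higher among genes at 5 FPKM or more in spleen. The median difference was 1.81, second to heart among the 15 libraries. After median-ratio scaling 9 of the 36 were 4-fold higher. Spleen was the highest library for PLVAP, CLDN5, CD93, MMRN2, TEK, FLT4 and EGFL7. PLVAP (C0J50_03582), which forms the diaphragms of fenestrated vessels, was at 193 FPKM in spleen, 85.9 FPKM in heart and 36.7 FPKM in head kidney, with a median of 19.7 FPKM. The tight junction gene CLDN5 (C0J50_03947) was at 107 FPKM, with 65.0 FPKM in the library labelled gill and a median of 5.89 FPKM. The angiopoietin receptor TEK was at 14.9 FPKM against 5.37 FPKM in head kidney, and FLT4, the receptor of lymphatic and venous vessels, at 14.1 FPKM against 6.21 FPKM in heart.

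Other vessel genes were not highest in spleen. CDH5, the cadherin of endothelial junctions, was at 29.2 FPKM and VWF at 8.49 FPKM, with 80.5 and 105 FPKM in heart. The scavenger receptors of sinus endothelium were low, with STAB1 at 3.53 FPKM and STAB2 at 0.456 FPKM, and head kidney higher for both. LYVE1 was at 28.2 FPKM in spleen and 91.2 FPKM in head kidney. Against head kidney the list had 5 genes 4-fold higher and none lower, beside 2.54% and 1.3% of all genes. Its median difference was 0.87.

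**Figure D3:**
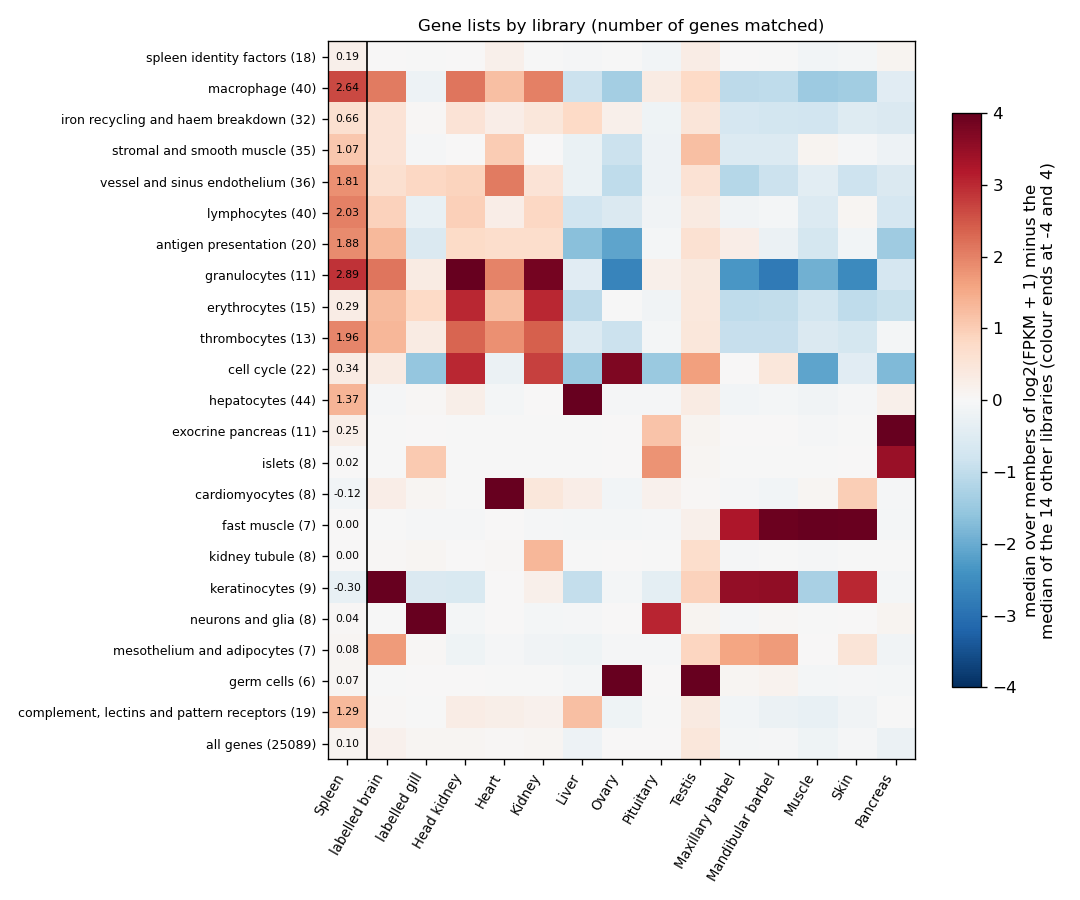
Each cell gives the median over a gene list of log2(FPKM + 1) minus the median of the 14 other libraries, with the number of matched genes in parentheses, the spleen column printed and colours ending at -4 and 4. In spleen the granulocyte (2.89), macrophage (2.64) and lymphocyte (2.03) lists have the highest medians, and all genes together have 0.10.

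Lymphocyte genes had a median difference of 2.03, the highest of the 15 libraries. Of 40 matched genes 19 were 4-fold higher than the median of the others, beside 5.9% of all genes, and none was 4-fold lower, beside 0.116%. An immunoglobulin heavy chain gene (C0J50_17935) was at 1817 FPKM in spleen, 768 FPKM in head kidney and 641 FPKM in kidney, against a median of 33.4 FPKM. Of 102 rows named as immunoglobulin lambda light chains, 90 were highest in spleen, beside 5.05% of all genes, and they summed to 5332 FPKM in spleen, 1755 FPKM in testis and 1402 FPKM in head kidney. That count was 92 under both other scalings. These rows carry 1 protein name and may share reads, which was not tested, so single rows are uncertain.

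T cell genes included the enriched CTLA4 (C0J50_08534), an inhibitory receptor, at 22.9 FPKM in spleen and 1.96 FPKM in the library labelled brain. A T-cell receptor beta chain (C0J50_10569) was at 112 FPKM against 31.1 FPKM in testis, and the interleukin 7 receptor at 23.3 FPKM, with the library labelled brain next at 8.47 FPKM. The B cell coactivator POU2AF1 was at 20.8 FPKM against 7.70 FPKM in head kidney, and PAX5 at 4.20 against 2.17 FPKM. CD4 and CD8A were at 2.54 and 2.37 FPKM. The recombinases RAG1 and RAG2, which assemble receptor genes in developing lymphocytes, were at 0.00685 and 0.0275 FPKM in spleen and no higher than 1.01 FPKM in any library.

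Antigen presentation genes had a median difference of 1.88, with 8 of 20 at least 4-fold higher, none lower and 9 highest in spleen, beside 5.9%, 0.116% and 5.05% of all genes. Among genes at 5 FPKM or more in spleen the shares higher and highest were 18.6% and 15.9%. Under median-ratio and under common-sum scaling 6 of the 20 were highest in spleen. Over every row matched to a symbol of the list the median was 1.09. The class II invariant chain CD74 (C0J50_18434) was at 1795 FPKM, close to the 1681 FPKM of the library labelled brain and above the 316 FPKM of head kidney. Class II beta and alpha chains were at 220 and 64.6 FPKM, with 195 and 64.5 FPKM in the library labelled brain and 24.2 and 6.26 FPKM in head kidney. The dendritic cell factor BATF3 was at 7.83 FPKM against 2.76 FPKM in testis.

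In the list of complement, lectins and pattern receptors, 4 of 19 genes were 4-fold higher and none lower, beside 5.9% and 0.116% of all genes. The first share was 18.6% among genes at 5 FPKM or more in spleen. The median difference was 1.29, and 0.71 over every row matched to a symbol of the list. Complement C7 (C0J50_15733), a component of the membrane attack complex, was at 3584 FPKM and among the 10 named genes of highest FPKM in spleen. In liver it was at 1406 FPKM, in head kidney at 185 FPKM and in kidney at 78.2 FPKM, and the range over the others began at a listed 0 with a median of 10 FPKM. Its neighbour on scaffold178151, complement C6 (C0J50_15732), was at 540 FPKM in spleen and 257 FPKM in head kidney. C6 lies on the plus strand from 825369 to 836496 and C7 on the minus strand from 837221 to 851762. A further C7 gene on scaffold160 was at 397 FPKM in spleen and 93.0 FPKM in testis. The C3-like gene C0J50_12319 was at 0.179 FPKM in spleen, and the C3a gene C0J50_17819 at 17.8 FPKM with 2202 FPKM in liver. A factor H gene (C0J50_22512) was at 1.67 FPKM in spleen, properdin (C0J50_03832) at 89.5 FPKM and factor B (C0J50_18492) at 73.2 FPKM. In liver they were at 939, 2960 and 483 FPKM, in that order.

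The 10 named genes of highest FPKM in spleen were both ferritin heavy chain genes above, cytoplasmic actin 2 (4103 FPKM), C7, cystatin B (3023 FPKM) and 5 ribosomal proteins. The cysteine protease inhibitor cystatin B (C0J50_12486) was at 92.4 FPKM in head kidney and 1064 FPKM in the library labelled brain, against a median of 37.6 FPKM. In all, spleen was the highest library at 5 FPKM or more for 1268 genes (5.05%), and head kidney came next for 332 of them. Against the median of the others, 1481 genes were at least 4-fold higher (5.9%) and 29 at least 4-fold lower (0.116%). The 14 other libraries had 354 to 3069 higher and 11 to 1167 lower genes by the same rules. The 29 included myoglobin, at 0.525 FPKM against a median of 55.6 FPKM, and the epithelial adhesion gene EPCAM, at 6.86 against 52.5 FPKM.

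The spleen was also set against head kidney and against kidney in pairs. Spleen and head kidney differed by at least 4-fold, with 5 FPKM or more in the higher, in 964 genes. Spleen was higher in 638 (2.54% of all genes) and lower in 326 (1.3%). That split of 66.2% higher moved to 80.0% after median-ratio scaling. Spleen and kidney differed in 1052 genes, 710 higher (2.83%) and 342 lower (1.36%), with 67.5% higher and 78.9% after median-ratio scaling. Both pairs share the spleen library.

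Cell cycle genes were at least 4-fold lower in spleen than in head kidney in 19 of 22, beside 1.3% of all genes. Their median difference was -2.66 against 0.00 over all genes. MKI67, a marker of dividing cells, was at 5.71 FPKM in spleen and 56.3 FPKM in head kidney, and CDK1 at 12 and 81.4 FPKM. Against the median of all other libraries the same list had a difference of 0.34, and none of the 22 was 4-fold higher or lower. The erythrocyte list was at least 4-fold lower than head kidney in 10 of 15, beside 1.3% of all genes, with a median of -2.12. An alpha globin (C0J50_18099) was at 2161 FPKM in spleen, 9078 FPKM in head kidney and higher again in kidney, with a median of 498 FPKM over the 14 others. The haem synthesis genes ALAS2 and FECH were at 12.5 and 16.2 FPKM in spleen against 91.0 and 162 FPKM in head kidney. After median-ratio scaling 15 of 22 and 7 of 15 were 4-fold lower.

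Granulocyte genes were high in spleen against most tissues and low against head kidney. Of 11 matched genes 8 were 4-fold above the median of the others, beside 5.9% of all genes, and that median difference was 2.89, or 1.48 over every row matched to a symbol of the list. Yet 3 were 4-fold lower than head kidney, beside 1.3% of all genes, with a median difference of -1.25 from that organ. Eosinophil peroxidase was at 51.5 FPKM in spleen and 1827 FPKM in head kidney, and nephrosin, a granulocyte metalloprotease of fish, at 190 and 3323 FPKM. The receptor CXCR1 had the other order, 13.9 FPKM in spleen and 5.87 FPKM in head kidney. Of 13 thrombocyte genes 6 were 4-fold above the median of the others (3 after median-ratio scaling), beside 5.9% of all genes. The clotting factor F13A1 alone was 4-fold lower than head kidney (34.8 against 175 FPKM), beside 1.3%.

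**Figure D4:**
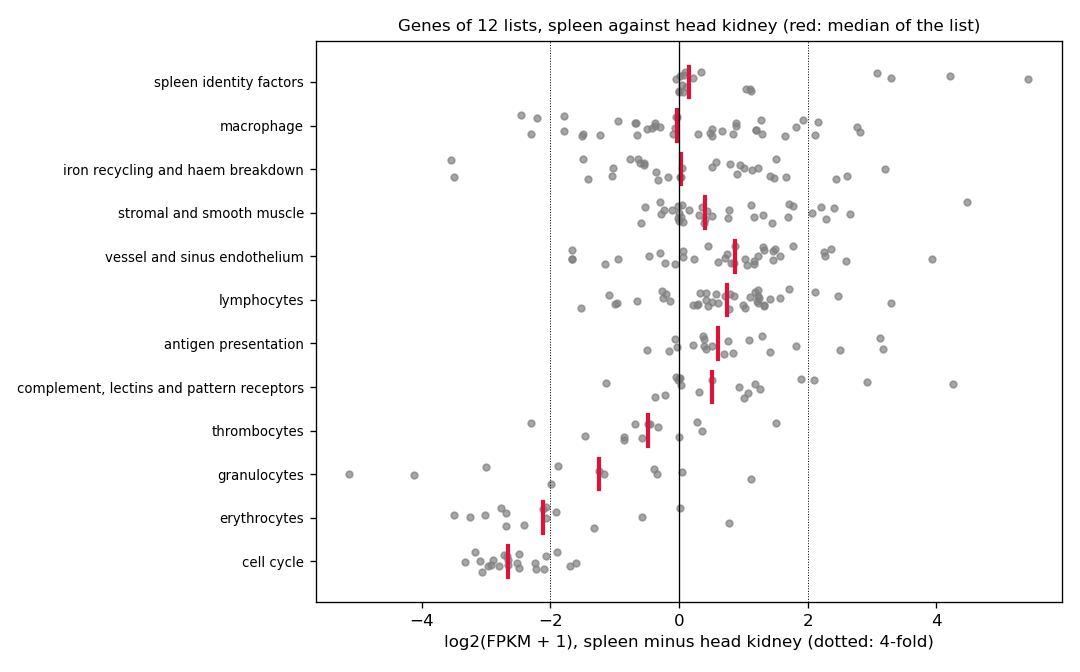
Each point is a gene of 1 of 12 lists, placed by log2(FPKM + 1) in spleen minus head kidney, with the list median in red and 4-fold marked by dotted lines; vertical scatter within a list has no meaning. Cell cycle (-2.66), erythrocyte (-2.12) and granulocyte (-1.25) medians lie left of 0, and vessel (0.87) and lymphocyte (0.74) medians lie right of it.

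The largest differences between spleen and head kidney among named genes were of several kinds. Besides the MFAP4-like gene, a gene named gastrula zinc finger protein XlCGF28.1-like (C0J50_04847) was at 403 FPKM in spleen and 0.0302 FPKM in head kidney. It was at 1402 FPKM in mandibular barbel, 353 and 326 FPKM in the libraries labelled brain and gill, and at 0.264 FPKM or less in the 11 others. The muscle genes TRIM63 (C0J50_04059) and telethonin (C0J50_22016) were at 192 and 131 FPKM in spleen. They reached 1418 and 1997 FPKM in muscle, 254 and 185 FPKM in heart and 0.112 and 0.0392 FPKM in head kidney. Other muscle genes were not seen at such levels in spleen, with creatine kinase CKM at 2.85 FPKM and the myosin MYH1 and parvalbumin listed at 0. A CD59-like gene (C0J50_24635) was at 174 FPKM in spleen, 180 FPKM in pancreas and 0.0546 FPKM in head kidney.

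In the other direction the largest named differences from head kidney were eosinophil peroxidase, argininosuccinate synthase (5.37 against 177 FPKM), the steroidogenic protein STAR (2.48 against 76.9 FPKM), carbamoyl-phosphate synthase (1.17 against 39.4 FPKM) and phosphoglycerate dehydrogenase (0.574 against 27.8 FPKM). STAR marks the steroid-producing interrenal cells of the head kidney and was at 0.249 FPKM in kidney. Against kidney the largest were the tubule genes for a sulfate anion transporter (a listed 0 against 55.1 FPKM), cadherin 17 (0.0203 against 47.8 FPKM) and SLC13A1 (a listed 0 against 43.7 FPKM), with a sodium pump alpha subunit (0.0177 against 42.1 FPKM) and myoglobin (0.525 against 61.6 FPKM). On the spleen side the leading named genes against kidney were the zinc finger gene, the MFAP4-like gene, aquaporin 8a, telethonin and TRIM63. The water channel aquaporin 8a (C0J50_17505) was at 171 FPKM in spleen, 0.0611 FPKM in kidney and 0.137 FPKM in head kidney, with 88.5 FPKM in pancreas.

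Few genes joined spleen, head kidney and kidney against the other 12 libraries. With the lowest of the 3 at 5 FPKM or more and 5-fold above the highest outside, 4 genes met the rule (0.0159%). Both genes named GPR182, an atypical chemokine receptor of sinus endothelium in mammals, were among them. C0J50_12568 was at 142, 86.3 and 55.2 FPKM in spleen, head kidney and kidney and at most 4.24 FPKM elsewhere, and C0J50_12239 at 83.3, 68.9 and 53.9 FPKM and at most 2.11 FPKM. The other 2 were immunoglobulin kappa variable genes, at 88.5 and 29.9 FPKM in spleen. Spleen with head kidney alone, and spleen with kidney alone, gave 0 genes by the same rule. When head kidney and kidney were left out, the spleen-enriched genes numbered 86. Leaving out libraries can only add genes under the enrichment rule, so all 42 were necessarily among them.

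A low share of liver genes was present in the spleen library and lay in a narrow band for most of the genes highest in liver. Liver genes were those at 100 FPKM or more in liver and at least 20 times the median of the libraries other than liver and spleen, and 205 genes met this. The 5 highest in liver were apolipoprotein A-I, at 38449 FPKM in liver and 108 FPKM in spleen, fibrinogen gamma, at 16650 and 49.3 FPKM, fibrinogen beta, at 13206 and 28.7 FPKM, apolipoprotein C-I, at 9908 and 29.3 FPKM, and fibrinogen alpha, at 9695 and 20 FPKM. Those were shares of 0.281%, 0.296%, 0.217%, 0.296% and 0.206%.

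Over the 205 genes the median share was 0.436%, with quartiles of 0.265% and 1.67%. Among the 40 at 1000 FPKM or more in liver it was 0.279%, with quartiles of 0.226% and 0.351%, and 28 of the 40 lay between 0.2% and 0.4%, a band chosen after the values were seen. By liver level the median was 0.555% at 100 to 300 FPKM, 0.424% at 300 to 1000 FPKM, 0.266% at 1000 to 3000 FPKM and 0.281% at 3000 to 10000 FPKM. No liver gene was listed at 0 in spleen. Testis had none at 0 either and head kidney had 3, while muscle had the most, 88. For each other receiving library the genes were chosen anew, with that library left out of the median in place of spleen. That gave 203 to 205 genes, and 40 at 1000 FPKM or more in liver. In those 13 libraries the lower quartile of the 40 ran from 0% to 0.0417%, all below the 0.226% of spleen. Head kidney came with a median of 0.0482% and quartiles of 0.0334% and 0.0627%, and testis with a median of 0.0481%. Pancreas had a median of 0.130% over its 40, with quartiles of 0.0141% and 1.05%. Over its 204 genes the median was 0.617%, above that of spleen over 205. Across the 205 genes the Spearman correlation of spleen with liver FPKM was 0.565, and in the 13 others, each over its own genes, it ran from -0.20 to 0.28. Over the 40 alone it was 0.58 in spleen, 0.62 in head kidney and 0.68 in the library labelled gill.

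The same measure was taken for genes of other source libraries. Head kidney genes had a median share of 27.8% in spleen with quartiles of 20.5% and 45.3%, and kidney genes a median of 32.2% with quartiles of 21.8% and 43.4%. Pancreas genes had a median share of 0.0178% with quartiles of 0.00559% and 0.380%, and muscle genes a median of 0.0497%. Heart and testis genes had medians of 0.599% and 0.455%, above the 0.436% of liver genes. Their quartiles were wider, at 0.0356% and 8.79% for heart and 0.0597% and 7.09% for testis. Skin, ovary and gill-labelled genes had medians of 0.339%, 0.312% and 0.307%. Of the 205 liver genes 60 reached 5 FPKM in spleen and 42 passed the 4-fold rule for higher, so they make up that many of the 1481. Over all genes the share higher was 5.9%, and 18.6% over genes at 5 FPKM or more in spleen. Liver genes have by rule a median far below liver in the other libraries, which eases that call. No liver gene was among the 42 spleen-enriched genes. Little overlap was possible, because liver genes are high in liver by rule and a spleen-enriched gene must lie far above liver. The absence therefore tells little about liver signal in those 42. The hepatocyte list had 15 of 44 genes higher, beside 5.9% of all genes. Its median difference was 1.37, or 0.47 over every row matched to a symbol and 2.95 with a pseudocount of 0.1, and its members at 5 FPKM or more in liver had a median share of 0.269% with quartiles of 0.206% and 0.362%. The source of this share was not tested.

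Above that band, 16 liver genes exceeded 10% of their liver FPKM in spleen, and those named here were chosen after their values were seen. C7 was the highest at 255%, followed by the hormone leptin at 81.6 FPKM or 72.2%, and by a pair of unnamed neighbours, C0J50_22981 (54.5%) and C0J50_22982 (41.9%). Glutathione peroxidase 3, a secreted peroxidase, was at 390 FPKM or 22.9%, retinol-binding protein 4 at 163 FPKM or 17.6%, angiotensinogen at 121 FPKM or 16.9% and complement factor B at 73.2 FPKM or 15.1%. The haem oxygenase 1 gene C0J50_04151 was at 25.7%.

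**Figure D5:**
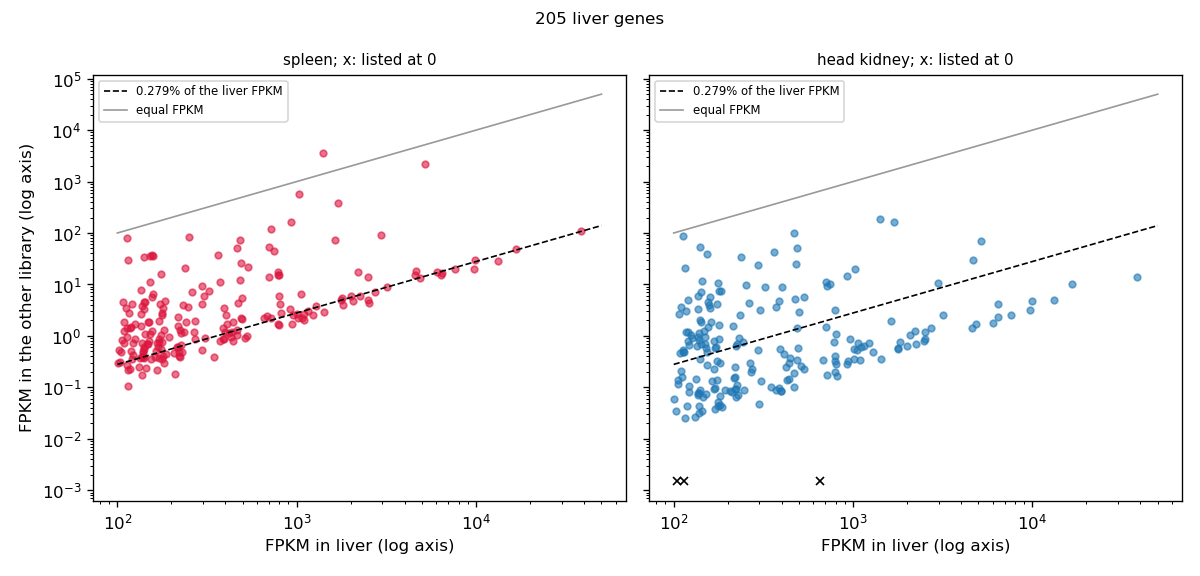
FPKM of 205 liver genes in spleen (left) and head kidney (right) against their FPKM in liver, on log axes, with crosses for genes listed at 0. The dashed line is 0.279% of the liver FPKM, the median share in spleen of genes at 1000 FPKM or more; most of the highest liver genes lie along it in spleen and below it in head kidney.

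Genes of other organs were low in spleen. Of the exocrine pancreas list, 3 of 11 genes reached 1 FPKM, with trypsin at 4.19 FPKM and a median difference of 0.25. The islet list had 1 gene at 1 FPKM or more of 8 and a median of 0.02. The cardiomyocyte list had 0 of 8 and a median of -0.12, with myoglobin 4-fold lower, and the fast muscle list 1 of 7 with a median of 0.00. Kidney tubule genes had 1 of 8 and a median of 0.00, neurons and glia 0 of 8 and 0.04, germ cells 0 of 6 and 0.07, and mesothelium and adipocytes 3 of 7 and 0.08, or -0.05 after median-ratio scaling. The keratinocyte list had a median of -0.30, yet KRT8 and KRT18, keratins also made by simple epithelia, were at 791 and 316 FPKM in spleen, against medians of 170 and 43.4 FPKM.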

How the data were processed

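RNA-seq of 15 tissue libraries was analysed from the authors' deposited table of FPKM for 25089 genes. StringTie 1.3.4d was used, per the submitters' processing notes; no source used here names the aligner, build, strand setting or treatment of shared reads. A deposited annotation gave positions and protein names, with 25064 genes found by locus tag and 21313 named; lengths are coding lengths. Symbols were matched by protein name (408 of 488 symbols in 22 lists), taking the row of highest mean FPKM, so paralogs are uncertain. Members, lists and rules were chosen with earlier results of these data known. Groups were the tissue labels, 1 library each, so no p-value was computed. The commonest low value of FPKM times coding length, taken as the step of 1 fragment, was 1.10 times the smallest for spleen and at most 6.61 times, in maxillary barbel; counts are unknown and no interval was derived. Calls used log2(FPKM + 1) in Python 3.11.15 with pandas 2.3.3. The rules for enriched, higher, lower, spleen higher in a pair, liver share and median-ratio scaling were run on simulated data. The shifted genes there lay far past the thresholds, so calls near a threshold were not tested. The rules for spleen highest, the group of 3 and spleen lower in a pair, and common-sum scaling, were not run there. The alternatives were other pseudocounts, FPKM minimums and folds, median-ratio scaling over genes seen in all libraries, common-sum scaling, and libraries left out. Named genes were up to 25 spleen-enriched genes, list members, the 5 named genes leading each group, pair direction and liver source, and the 10 highest in spleen; other genes, including paralogs and neighbours of these, genes next to a threshold and liver genes over 10%, were chosen after their values were seen. No per-sample column was left unused.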

Additional observations from a re-analysis of the deposited data

How the results depend on the processing

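No paired analysis was possible because each tissue had 1 library and no comparison gave a test. Spleen-enriched genes numbered 73 with a pseudocount of 0.1, 8 with a 10-fold lead, 19 by a tau of at least 0.9 and 86 without head kidney and kidney. Median-ratio scaling kept 31 of the 42 and scaling to a common sum 32. All 42 remained highest in spleen, but that rank could not change. The lead required of them was larger than any shift these scalings make between spleen and another library. With a minimum of 20 FPKM the counts were 685 for spleen highest, 822 for higher and 4 for lower than the median of the others, 2 for the group of 3, 531 against head kidney and 555 against kidney. With 10-fold they were 473 higher, 5 lower, 2 for the group, 163 against head kidney and 201 against kidney. Spleen was highest by 2-fold for 425 genes. With a pseudocount of 0.1, 47 genes were lower and the group held 7. Of 408 list members 119 were called higher (29.2%), beside 5.9% of all genes and 18.6% of those at 5 FPKM or more in spleen. After median-ratio scaling 88 were, when 1092 of the 25089 genes were called higher. Counting every row matched to a symbol gave 268, but over more rows than the 408. The median liver share was 0.279% with liver at 1000 FPKM or more, 0.485% at 20 or more, 0.315% at 100 times the median, 0.269% over the hepatocyte list, 0.207% after median-ratio and 0.403% after common-sum scaling. The correlation with head kidney was 0.906 by Pearson on log2 values. Causes were not tested. Depth limits are unknown without counts, and 1 library per tissue cannot separate tissue from fish or preparation.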

Other observations

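Genes outside the lists were looked at after their values were seen. Of 17 genes named olfactomedin-4, 13 were 4-fold higher in spleen than the median of the others and 8 were highest there, beside 5.9% and 5.05% of all genes. C0J50_23867 was at 260 FPKM in spleen and 77.1 FPKM in head kidney, while C0J50_23869 on the same scaffold was at 130 and 564 FPKM, so members of the family differed in order between both organs. The interferon-induced transmembrane gene C0J50_07032, of an antiviral family, was at 1863 FPKM in spleen and 675 FPKM in liver, and its neighbour C0J50_07033 at 1188 and 609 FPKM. Of 30 immunoglobulin kappa variable genes 24 were highest in spleen under each scaling, beside 5.05% of all genes in the deposited FPKM.

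Neighbouring Hox genes on scaffold178185 shared a pattern. Hox-B8b, Hox-B6b (C0J50_17568) and Hox-B1b (C0J50_17570) were at 9.72, 6.25 and 8.39 FPKM in spleen. All 3 were listed at 0 in head kidney, and ovary came next, at 0.270, 2.44 and 5.83 FPKM. Of 81 cytosolic ribosomal protein genes 21 were highest in spleen, beside 5.05% of all genes and 15.9% of those at 5 FPKM or more in spleen. After median-ratio scaling 0 were and after scaling to a common sum 8, so that order depends on the scaling.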
